A study of Mus musculus with 2 samples.

Results

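Clustered histone genes were taken as all genes whose symbol starts with Hist1h, Hist2h, Hist3h or Hist4h, which gave 64 of the 18452 genes in 2 matrices of single-cell UMI counts. By class these were 6 linker H1 genes, 17 H2A, 16 H2B, 12 H3 and 13 H4 genes. The E10.5 matrix held 62 of them, the E9.5 matrix 63, and 61 were in both. The symbol alone chose the genes, but the family was taken up with earlier results of these same cells known, so its stage levels are given as a description.

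Wild-type mouse embryos were dissected at E10.5 (967 cells) and E9.5 (533 cells), and the cells came from the second heart field, the mesoderm that adds cells to both ends of the heart tube. All cells are labelled Osr1+, after a zinc finger gene of the posterior field, and each had at least 1 Osr1 UMI. At E10.5 the dissected positions were posterior (560 cells), middle (331 cells), outflow tract (31 cells) and anterior (45 cells), and at E9.5 they were posterior (418 cells), middle (61 cells) and anterior (54 cells). Each stage is 1 sample, no sort, transgene or number of pooled embryos is given in the labels, and each position is 1 library per stage, told by the barcode suffix.

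The libraries held 196599 to 3449001 UMIs at E10.5 and 1296638 to 13650408 at E9.5, with a median of 5263 to 6084 UMIs per cell at E10.5 and 23028 to 31257 at E9.5. Xist had a UMI in 903 of the 967 cells at E10.5 and in 1 of the 533 cells at E9.5, so stage, embryo sex and depth cannot be told apart. Second heart field markers (Isl1, Osr1, Tbx1, Mef2c, Nkx2-5, Hand2, Foxf1, Tbx5) summed to 272 to 784 CPM (UMIs scaled to a common library total) at E10.5 and 517 to 674 CPM at E9.5. Osr1 is in this sum and every cell held at least 1 Osr1 UMI, so part of the sum was fixed beforehand. That part is larger in the shallower E10.5 cells. Tbx5 was at 0 in the outflow tract and both anterior libraries, and the E10.5 anterior library also lacked Nkx2-5 and Hand2 UMIs. Of the 21 pairs of libraries, 1 pair (E10.5 posterior and middle) shared a barcode, and it shared 1.

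Histone proteins package newly copied DNA, and most of the clustered genes are switched on together in S phase, when DNA is replicated. Core histones H2A, H2B, H3 and H4 form the nucleosome, and linker H1 binds the DNA between nucleosomes. Their mRNAs are unusual in ending in a conserved stem-loop, which the stem-loop binding protein Slbp holds, where other mRNAs carry a poly(A) tail; some clustered genes are also known to make longer, polyadenylated transcripts, mainly outside S phase. Standard 10x kits prime on poly(A), so the level of these genes in such data depends on the form of the transcript as well as on its amount; the labels do not say which kit was used. Pcna, the sliding clamp of DNA polymerase, and Mcm2 to Mcm7, the subunits of the replicative helicase, are the replication genes set beside them here.

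The stem-loop that ends these mRNAs is shown for 1 member of each sequence found, because it is the feature that sets this family apart from other mRNAs. A script searched the longest GENCODE vM21 coding transcript of each member for a stem of 6 base pairs, of which the first strand opens with a pair of G bases, goes on with pyrimidines and ends in CT, around a loop of 4 bases, TTT and any base; the loop is in capitals.
Hist1h2ae: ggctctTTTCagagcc
Hist1h3c: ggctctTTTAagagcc
Hist2h2ac: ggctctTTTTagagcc
Hist1h4d: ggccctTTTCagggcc
Hist1h4i: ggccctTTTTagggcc
Hist1h4b: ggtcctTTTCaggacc
Of the 64 members, 42 held such a stem-loop in the annotated transcript, against 0.215% of 21877 protein-coding genes. The form with C as the last loop base and the stem of Hist1h2ae was in 24 members, of the H1, H2A, H2B and H3 classes. All 11 H4 members with a stem-loop had another stem, that of Hist1h4d and Hist1h4i in 9 and that of Hist1h4b in 2. A transcript annotated without the stem-loop, as in Hist1h1b, may simply be annotated short, so no match here says only that these letters are not in the annotated transcript.

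The members lie in 4 places of the mm10 genome: 52 on chromosome 13 (21715763 to 23934851), 9 on chromosome 3 (96219865 to 96270132), 2 on chromosome 11 (58948920 to 58956830) and 1 on chromosome 6 (136801553 to 136804415). The Hist1 genes on chromosome 13 took 12243 of the histone UMIs. In 10 places an H2A and an H2B gene sit head to head, with 176 to 302 bases between them, and so share the sequence before their starts.

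Promoters are shown for 4 members: Hist1h1b and Hist1h2ae, which were far higher at E10.5, Hist1h2bm, an H2B gene that was also higher at E10.5, and Hist1h4i, which was not. Each is the 150 bases before the RefSeq start (GRCm38.p6, the assembly of mm10), with matches on either strand in capitals. These are CCAAT, the box bound by NF-Y, TATAAA, a form of the TATA box, and the octamer ATTTGCAT, bound by Oct factors. Capitals mark letters wherever they fall: the TATAAA of Hist1h1b lies near the start, those of Hist1h4i and Hist1h2ae far from it.
Hist1h1b, chr13:21780626-21780775, minus strand: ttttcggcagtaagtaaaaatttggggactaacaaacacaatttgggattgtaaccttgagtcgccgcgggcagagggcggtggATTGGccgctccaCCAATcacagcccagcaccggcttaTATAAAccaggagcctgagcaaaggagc
Hist1h2ae, chr13:23571221-23571370, minus strand: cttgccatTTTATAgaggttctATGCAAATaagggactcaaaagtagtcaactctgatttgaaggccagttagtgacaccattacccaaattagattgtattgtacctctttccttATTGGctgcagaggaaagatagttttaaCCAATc
Hist1h2bm, chr13:21721894-21722043, plus strand: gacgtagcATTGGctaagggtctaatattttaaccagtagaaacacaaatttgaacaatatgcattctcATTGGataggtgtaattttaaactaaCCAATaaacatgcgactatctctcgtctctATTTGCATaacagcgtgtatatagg
Hist1h4i, chr13:22041363-22041512, minus strand: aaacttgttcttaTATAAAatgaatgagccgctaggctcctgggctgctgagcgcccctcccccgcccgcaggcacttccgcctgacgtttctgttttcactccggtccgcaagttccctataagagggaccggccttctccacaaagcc
Over the 250 bases before the start, CCAAT was in 48 of the 59 members with a RefSeq promoter (81.4%), against 33.8% of all 32851 promoters. All 6 H1, all 17 H2A and all 14 H2B promoters held it, as did 8 of 10 H3 promoters and 3 of 12 H4 promoters. The octamer, known from H2B promoters, was in 7 H2A and 5 H2B promoters and in none of the H1, H3 or H4 promoters (20.3% of members, 1.60% of all promoters). TATAAA was in 28 member promoters (47.5%, against 12.4% of all). Paired H2A and H2B genes share part of these windows, so their matches are not separate cases.

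The stages were compared position by position, since 1 sample per stage allows no test; the intervals are 95% exact Poisson intervals of the ratio and cover counting error only. Clustered histone UMIs made up more of the E10.5 libraries than of the E9.5 libraries at all 3 shared positions. Their sum was 1580 CPM in the E10.5 posterior, 989 in the middle, 1180 in the outflow tract and 1107 in the anterior library, against 368 CPM in the E9.5 posterior, 424 in the middle and 333 in the anterior library. No E9.5 library reached the lowest E10.5 library. The ratio was 4.29 in posterior (4.13 to 4.46), 2.33 in middle (2.14 to 2.55) and 3.32 in anterior libraries (2.85 to 3.87), a mean log2 ratio of 1.68.

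The classes did not move alike. H1 and H3, whose E10.5 and E9.5 libraries did not overlap, differed most in the mean over the 3 positions. Their mean log2 ratios were 2.61 and 2.62, against 1.96 for H2A. H1 genes summed to 437 to 519 CPM at E10.5 against 67.9 to 88.7 CPM at E9.5, and H3 genes to 114 to 167 CPM against 20.8 to 22.6 CPM. H1 was 6.39-fold (5.89 to 6.93) and H3 7.41-fold (6.45 to 8.54) higher in posterior libraries. H2A genes were at 215 to 617 CPM at E10.5 against 76.4 to 95.5 CPM at E9.5, also without overlap, and their ratio varied with position, 6.47 in posterior, 2.25 in middle and 4.07 in anterior libraries.

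H2B and H4 differed little outside the posterior libraries. H2B summed to 183, 123, 117 and 114 CPM in the E10.5 posterior, middle, outflow tract and anterior libraries, against 98.2, 109 and 110 CPM in the E9.5 posterior, middle and anterior libraries. The H2B ratio was 1.86 in posterior libraries (1.69 to 2.05), and its intervals held 1 in middle (1.14, 0.93 to 1.39) and anterior libraries (1.04, 0.67 to 1.55). H4 was 1.97-fold higher in posterior libraries (1.78 to 2.19), and the intervals again held 1 in middle (0.83, 0.67 to 1.03) and anterior libraries (1.36, 0.79 to 2.25). The make-up of the histone UMIs thus differed between stages: H2B gave 9.91% to 12.5% of them per library at E10.5 against 25.6% to 33.1% at E9.5, H4 6.47% to 10.2% against 17.4% to 25.9%, and H1 28.6% to 44.2% against 19.2% to 20.9%. In library sums, fewer cells with a transcript and less of it per cell cannot be told apart.

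**Figure D1:**
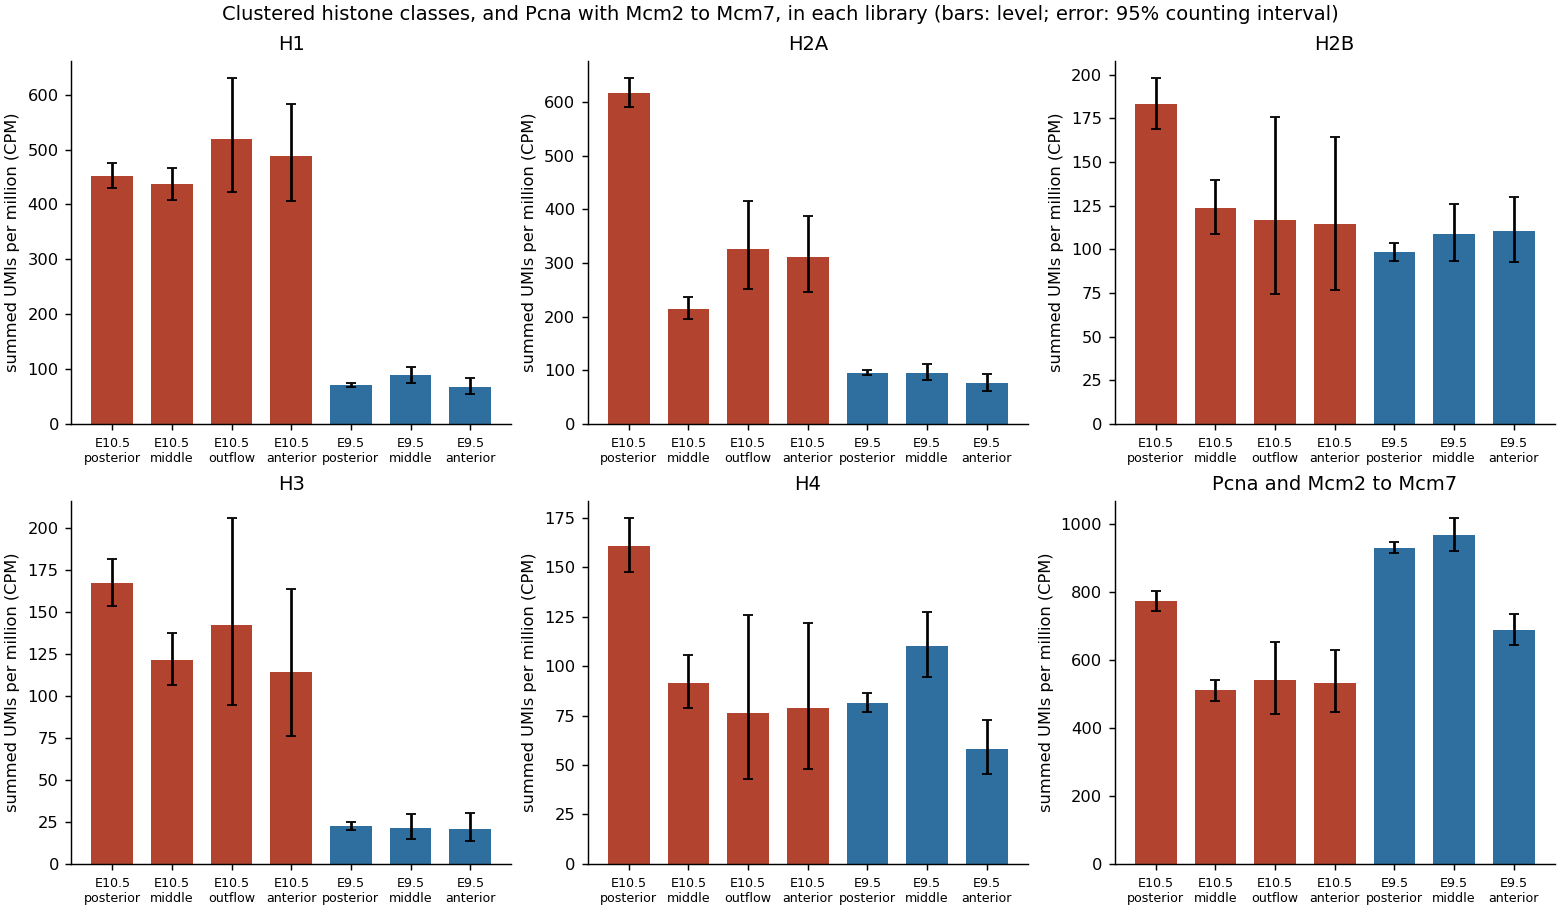
Summed level of each histone class, and of Pcna with Mcm2 to Mcm7, in CPM (vertical axis, from 0) for each library (horizontal axis, E10.5 in red and E9.5 in blue), with 95% exact Poisson counting intervals. H1 and H3 are several times higher in every E10.5 library than in any E9.5 library, H2B is nearly level outside the posterior libraries, H4 overlaps between the stages, and the replication genes are lower at E10.5 than at E9.5 at each shared position.

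Pcna and the Mcm genes did not follow this stage difference. Their sum was 773, 510, 539 and 532 CPM in the E10.5 posterior, middle, outflow tract and anterior libraries, against 928, 966 and 687 CPM in the E9.5 posterior, middle and anterior libraries. The ratio was below 1 at each position, 0.83 in posterior (0.80 to 0.87), 0.53 in middle (0.49 to 0.57) and 0.77 in anterior libraries (0.64 to 0.93). Pcna itself was at 38.6, 44.6, 30.5 and 63.0 CPM in the E10.5 libraries in the same order, against 70.6, 69.9 and 67.9 CPM in the E9.5 libraries, which were all higher. None of the 7 was 2-fold higher or lower at all 3 positions.

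Among the members, the share that was higher at E10.5 stood well apart from that of all genes. Of the 49 members with at least 20 UMIs over the 6 libraries of the shared positions, 15 met the criterion of being at least 2-fold higher at E10.5 at all 3 positions, where 3.02% of 12531 genes were, and 1 was at least 2-fold lower, where 1.38% were. The median of the 49 mean log2 ratios was 1.68, against −0.05 over all genes. The other 33 members met neither criterion, and 15 members had under 20 UMIs. In 4 of the 15 higher members (Hist1h2ab, Hist1h2an, Hist1h2bn, Hist1h3i) both anterior libraries held 3 UMIs or fewer. No anterior ratio is given for these 4, although they are counted among the 15. The middle interval held 1 in Hist1h2ab. The anterior interval held 1 in Hist1h1d, Hist1h2bm and Hist1h4h. Where an E9.5 library was at 0 (Hist1h2an, Hist1h3i and Hist1h4h in the middle, Hist1h2ab, Hist1h2be and Hist1h2bn in the anterior one), it was set to 3 UMIs for this count. The E10.5 anterior library held 253936 UMIs in total, against 1296638 in the E9.5 anterior library. At that position a thinly counted gene therefore met the criterion for higher more easily than for lower. The same rule was used for all genes.

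Linker H1 genes were the most uniform class, with 4 of its 5 well-counted members at least 2-fold higher at all 3 positions. Hist1h1b (mm10 chromosome 13, 21779883 to 21780625, minus strand), the member with the most UMIs, was at 237, 257, 315 and 244 CPM in the E10.5 posterior, middle, outflow tract and anterior libraries, against 17.5, 19.4 and 24.7 CPM in the E9.5 posterior, middle and anterior libraries. The stages did not overlap, and the ratio was 13.5 in posterior (11.7 to 15.7), 13.3 in middle (9.25 to 19.8) and 9.89 in anterior libraries (6.36 to 15.7). Hist1h1e, another linker gene, was at 106 to 134 CPM at E10.5 against 19.7 to 32.5 CPM at E9.5, with a posterior ratio of 6.19 (5.30 to 7.25). Hist1h1a and Hist1h1d were 10.4-fold and 8.69-fold higher in posterior libraries. Hist1h1c went the other way: it was at 19.4, 8.82, 10.2 and 11.8 CPM in the E10.5 posterior, middle, outflow tract and anterior libraries, against 25.8, 29.3 and 9.25 CPM in the E9.5 posterior, middle and anterior libraries. Its interval lay below 1 in posterior (0.75, 0.57 to 0.98) and middle libraries (0.30, 0.16 to 0.53) and held 1 in anterior libraries (1.28, 0.23 to 4.73). Hist1h1t, the testis linker gene, had 2 UMIs, both at E10.5.

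H2A held members far higher at E10.5 and also the 1 member at least 2-fold lower at all 3 positions. Hist1h2ae (chromosome 13, 23570517 to 23571220, minus strand) was at 203, 79.8, 117 and 102 CPM in the E10.5 posterior, middle, outflow tract and anterior libraries, against 12.2, 11.9 and 9.25 CPM in the E9.5 posterior, middle and anterior libraries, and the stages did not overlap. Its ratio was 16.7 in posterior (14.1 to 19.9), 6.73 in middle (4.17 to 11.5) and 11.1 in anterior libraries (5.39 to 24.1). Hist1h2ap was at 267 CPM in the E10.5 posterior library, but at 34.3, 102 and 63.0 CPM in the E10.5 middle, outflow tract and anterior libraries, against 36.2, 32.5 and 24.7 CPM in the E9.5 posterior, middle and anterior libraries. Its middle libraries did not differ beyond counting error (1.06, 0.73 to 1.54), while the posterior ratio was 7.37 (6.60 to 8.24). Hist2h2ac (chromosome 3) was 14.6-fold higher in posterior and 13.2-fold higher in middle libraries, and its anterior ratio rested on 23 UMIs at E10.5 against 2 at E9.5. Hist1h2ab and Hist1h2an, less often counted, were 20.6-fold and 9.67-fold higher in posterior libraries, with too few anterior UMIs for a ratio.

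Hist3h2a (chromosome 11, 58954685 to 58956830, plus strand), of the small Hist3 cluster, was the member at least 2-fold lower at all 3 positions. It was at 11.6, 8.33, 10.2 and 7.88 CPM in the E10.5 posterior, middle, outflow tract and anterior libraries, against 27.3, 26.9 and 24.7 CPM in the E9.5 posterior, middle and anterior libraries. All 4 E10.5 libraries were below all 3 E9.5 libraries. The ratio was 0.43 in posterior (0.30 to 0.59), 0.31 in middle (0.17 to 0.56) and 0.32 in anterior libraries, where 2 UMIs against 32 left an interval that held 1 (0.04 to 1.25).

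H2B genes split the same way. Hist1h2bc (chromosome 13, 23684199 to 23692908, plus strand) was the H2B gene with the most UMIs and was at 11.9, 15.7, 20.3 and 15.8 CPM in the E10.5 posterior, middle, outflow tract and anterior libraries, against 54.1, 37.5 and 25.5 CPM in the E9.5 posterior, middle and anterior libraries. All 4 E10.5 libraries were below all 3 E9.5 libraries, and the ratio was 0.22 in posterior (0.16 to 0.30), 0.42 in middle (0.26 to 0.65) and 0.62 in anterior libraries (0.16 to 1.74). Hist3h2ba, the H2B neighbour of Hist3h2a, was at 21.5, 13.2, 30.5 and 15.8 CPM in the E10.5 libraries in that order, against 24.2, 53.7 and 57.1 CPM in the E9.5 libraries. Its posterior libraries did not differ beyond counting error (0.88, 0.68 to 1.14), and it was lower at E10.5 in the middle (0.25, 0.15 to 0.38) and anterior libraries (0.28, 0.07 to 0.74). In contrast, Hist1h2bm was at 29.3, 22.5, 25.4 and 19.7 CPM at E10.5, against 3.37, 3.12 and 8.48 CPM at E9.5, 8.69-fold higher in posterior libraries (6.07 to 12.6). Hist1h2be and Hist1h2bn, with 114 and 67 UMIs in all, were also higher in posterior and middle libraries; both were at 0 in the E9.5 anterior library, against 5 UMIs of Hist1h2be and 2 of Hist1h2bn in the E10.5 anterior library.

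Of the 9 well-counted H3 genes, 3 met the 2-fold criterion for higher and 0 for lower. Hist1h3c (chromosome 13, 23744973 to 23745602, minus strand) was at 87.0, 51.9, 76.3 and 51.2 CPM in the E10.5 posterior, middle, outflow tract and anterior libraries, against 6.23, 5.0 and 9.25 CPM in the E9.5 posterior, middle and anterior libraries, with no overlap. The posterior ratio was 14.0 (10.9 to 18), with 10.4 in middle and 5.53 in anterior libraries. Hist1h3e was 8.44-fold higher in posterior libraries (5.39 to 13.5) and Hist1h3i 9.35-fold (5.58 to 16.2). Hist1h3d was nearer to level, at 12.5, 12.7, 5.09 and 15.8 CPM at E10.5 against 6.59, 9.99 and 2.31 CPM at E9.5.

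The 2 H4 genes with the most UMIs went opposite ways in posterior libraries. Hist1h4i (chromosome 13, 22040636 to 22041362, minus strand), which led the E9.5 histone UMIs with 16.8% of them, was at 29.6, 33.8, 45.8 and 55.1 CPM in the E10.5 posterior, middle, outflow tract and anterior libraries, against 61.4, 85.5 and 43.2 CPM in the E9.5 posterior, middle and anterior libraries. It was lower in posterior (0.48, 0.39 to 0.59) and middle libraries (0.40, 0.29 to 0.53), and its anterior interval held 1 (1.28, 0.66 to 2.32). Hist1h4d was at 72.8, 27.4, 10.2 and 7.88 CPM at E10.5 in the same order, against 9.16, 15 and 6.17 CPM at E9.5. Its posterior ratio was 7.95 (6.39 to 9.93), with 1.83 in middle libraries (1.12 to 3.09) and an anterior interval that held 1. Hist1h4h, with 140 UMIs, was 28.0-fold higher in posterior libraries (15.9 to 53.1) and the H4 member that met the 2-fold criterion, on 2 anterior UMIs at E10.5 against 4 at E9.5 (ratio 2.55, 0.23 to 17.8).

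The members with the most counted UMIs therefore differed between stages. At E10.5 the 5 leading members (Hist1h1b, Hist1h2ap, Hist1h2ae, Hist1h1e, Hist1h3c) gave 56.8% of 7982 histone UMIs, and at E9.5 the 5 leading members (Hist1h4i, Hist1h2bc, Hist1h2ap, Hist3h2ba, Hist3h2a) gave 55.0% of 6139. Only Hist1h2ap was in both groups of 5.

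**Figure D2:**
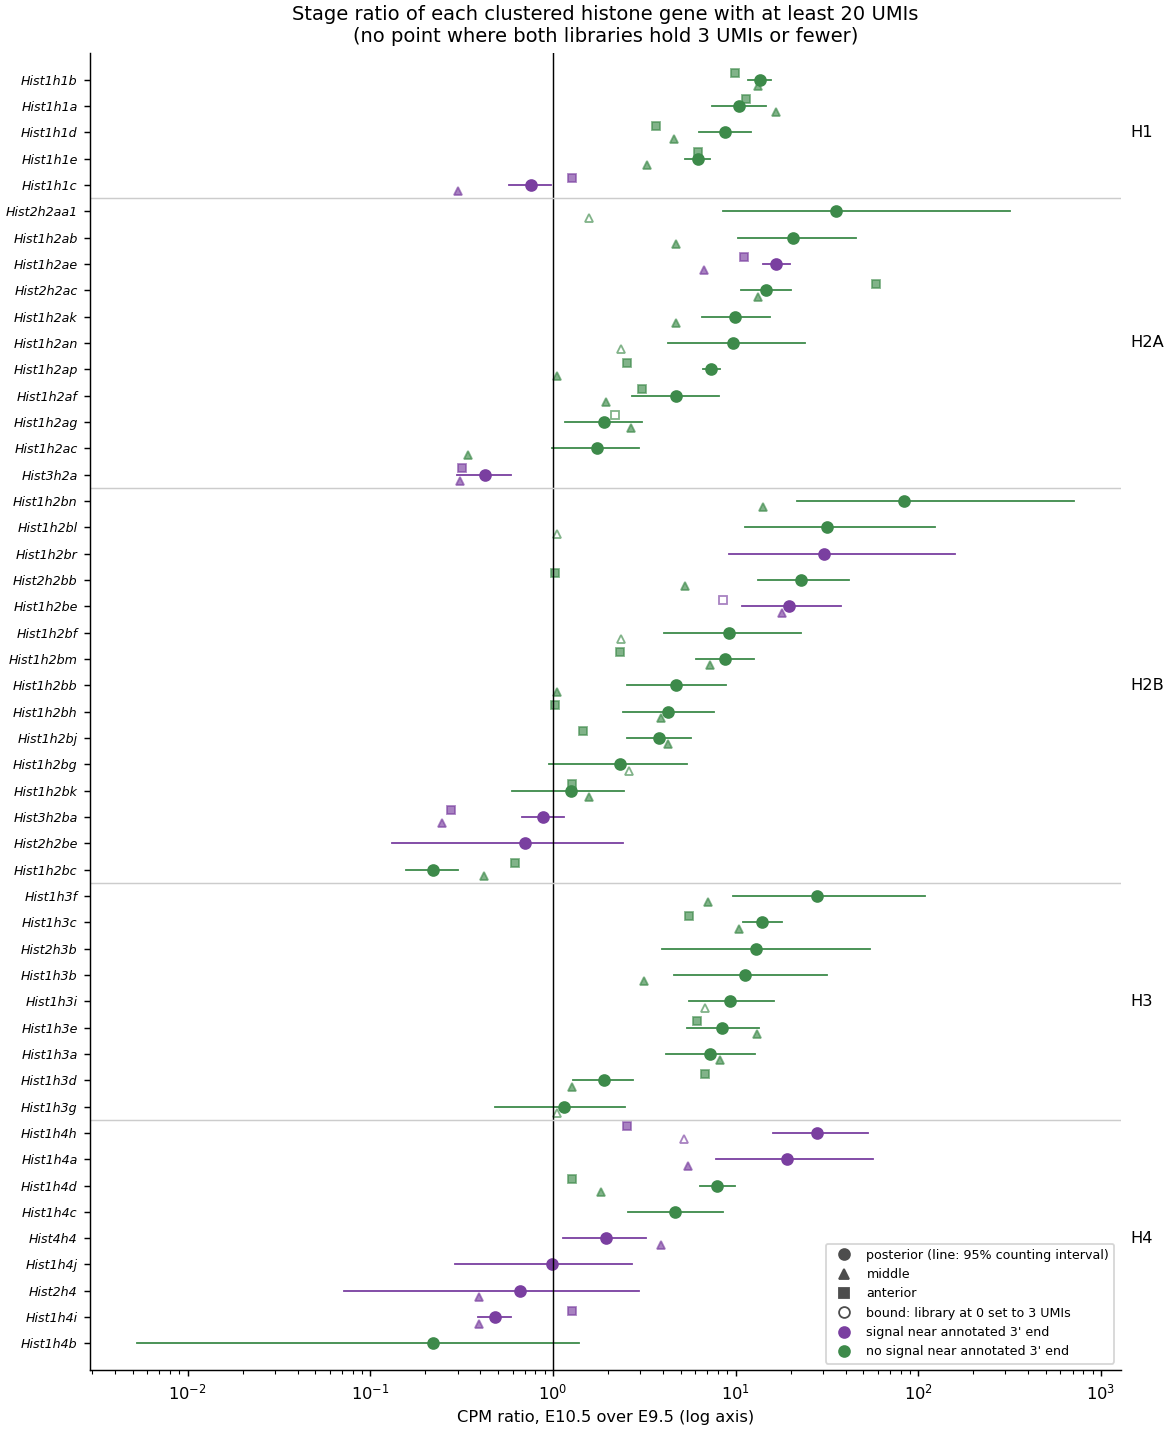
CPM ratio of E10.5 over E9.5 (horizontal log axis) for each of the 49 members with at least 20 UMIs, by class and posterior ratio, at the posterior (circles, with 95% counting intervals), middle (triangles) and anterior (squares) positions; open symbols are bounds with a library at 0 set to 3 UMIs, and no point is drawn where both libraries hold 3 UMIs or fewer. Purple members have a polyadenylation signal near the end of their annotated transcript. Of the 13 purple members, 7 lie left of 1 in posterior libraries, among them Hist1h1c, Hist3h2a, Hist1h4i and Hist3h2ba, whose interval holds 1. Other purple members, such as Hist1h2ae, Hist1h2be and Hist1h4h, lie far right of 1. Of the 36 green members, 34 lie right of 1.

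The annotated transcript end went along with this split. A polyadenylation signal (AATAAA or ATTAAA) lay within 50 bases of the end of the longest annotated transcript in 16 of 64 members (25%), against 72.8% of all protein-coding genes. Of the members with at least 20 UMIs, the 13 with a signal had a median posterior log2 ratio of −0.02, and 7 of the 13 were below 0: Hist1h1c, Hist3h2a, Hist3h2ba, Hist2h2be, Hist1h4i, Hist1h4j and Hist2h4. The posterior intervals of Hist3h2ba, Hist2h2be, Hist1h4j and Hist2h4 held 1. The 36 without a signal had a median of 3.10, and 2 of the 36 were below 0, Hist1h2bc and Hist1h4b. The annotated Hist1h2bc transcript of 1156 bases is spliced from a longer locus, and the posterior interval of Hist1h4b held 1. The split was not complete, since Hist1h2ae, Hist1h2be and Hist1h4h have a signal and met the 2-fold criterion for higher. Summed over all members of each kind, those with a signal were at 361, 187, 239 and 236 CPM in the E10.5 posterior, middle, outflow tract and anterior libraries. In the E9.5 posterior, middle and anterior libraries they were at 161, 216 and 148 CPM. Their ratio was 2.24 in posterior (2.09 to 2.40), 0.87 in middle (0.75 to 1.00) and 1.60 in anterior libraries (1.17 to 2.14). The posterior ratio rested largely on Hist1h2ae. It gave 699 of the 1246 UMIs of members with a signal in the E10.5 posterior library and 166 of 2200 in the E9.5 one. Those without were at 1219, 801, 941 and 870 CPM at E10.5, against 207, 208 and 185 CPM at E9.5, 5.88-fold higher in posterior, 3.85-fold in middle and 4.70-fold in anterior libraries. This property was chosen after the ratios were seen and is not tested.

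Histone genes are near copies of each other, so reads can be split or lost between them. In 46 of 64 members at least 1 of the 90-base windows in the last 500 bases of the annotated transcript also occurs in another gene's transcript; these had a median posterior log2 ratio of 3.23 over the 33 with at least 20 UMIs, against 0.94 over the 16 of the other 18 with as many. Hist1h1b, Hist1h1a and Hist1h1d share no such window and were 13.5-fold, 10.4-fold and 8.69-fold higher in posterior libraries. Single values of Hist1h2ap, Hist1h2ae, Hist1h3c and other members with shared windows are uncertain. Lost reads would also be missing from the class sums. Hist1h1e overlaps the annotated Hist1h2be on the same strand. In the same posterior libraries, 76 abundant ribosomal protein genes had a median log2 stage ratio of 0.06. Of these, 7 (Rpl10, Rpl27, Rpl29, Rpl9, Rps12, Rps18, Rps27) were 10.7-fold to 122-fold higher at E10.5. In these 7, 7.54% to 100% of the windows occur in other genes. Windows of the other ribosomal protein genes were not read, so shared windows cannot be set against the stage ratio there. Whether the ribosomal protein gene differences bear on the histone ratios was not tested.

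A smaller share of each comparison list met the 2-fold criterion for higher. Of the 10 well-counted genes of histone mRNA processing and transcription, none was 2-fold higher or lower at all 3 positions (median of mean log2 ratios 0.02). Slbp, the stem-loop binding protein, was at 199, 281, 254 and 291 CPM in the E10.5 posterior, middle, outflow tract and anterior libraries, against 219, 252 and 175 CPM in the E9.5 posterior, middle and anterior libraries, which overlapped. Casp8ap2, a factor of histone gene transcription, was at 86.2 to 122 CPM at E10.5 against 47.0 to 60.6 CPM at E9.5, 2.23-fold in posterior libraries (1.97 to 2.51), and Cpsf2, a subunit of the cleavage complex, was at 52.9 to 86.6 CPM against 57.8 to 70.8 CPM. Of 13 histone chaperones 2 met the criterion for higher; the 3 most counted, Nap1l1, Nasp and Rbbp7, had ratios of 1.03 to 1.18, 1.04 to 1.47 and 0.47 to 0.53 over the 3 positions.

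The list of replication-independent histone genes gave 0 of 11 past 2-fold at all positions (median of mean log2 ratios 0.41). At the anterior position alone their median log2 ratio was 0.78, against 0.77 for the clustered histone genes. H2afz was at 4057, 6606, 5488 and 7880 CPM in the E10.5 posterior, middle, outflow tract and anterior libraries, against 4364, 4926 and 3997 CPM in the E9.5 posterior, middle and anterior libraries. H3f3a and H3f3b, which both encode the replacement H3, had ratios of 1.08 and 1.03 in posterior, 1.29 and 1.37 in middle and 1.52 and 1.89 in anterior libraries. None of 20 S phase genes passed (median −0.14), among them Dut, Rrm2 and Tyms, enzymes of nucleotide supply. Rrm2 had a ratio of 0.65 in posterior and 0.73 in middle libraries but 1.86 in anterior libraries (1.47 to 2.34), Dut 0.80, 0.83 and 1.12 and Tyms 1.1, 1.17 and 1.28 at the same positions. Of 20 G2/M genes 1 passed (median 0.55), and the 3 most counted, Hmgb2, Cks2 and Ube2c, had posterior ratios of 0.80, 0.78 and 1.46 and anterior ratios of 0.89, 0.84 and 2.34.

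Position was tested with edgeR's quasi-likelihood test over the 6 libraries of the 3 shared positions, with stage in the model and the 2 stage samples as the replicates. The fit tested 9825 genes and 31 members, and a gene was called at a Benjamini-Hochberg adjusted p under 0.05 over all genes. In posterior against anterior libraries 0 of 31 members were called, where 0.295% of all genes were (0.153% higher and 0.142% lower). At an unadjusted p under 0.05 there were 4 members in this contrast, and 6.05% of all genes. In posterior against middle libraries 0 were called, where 0.193% of all genes were (0.142% higher and 0.0509% lower), and 2 members had an unadjusted p under 0.05, as had 3.85% of all genes. In middle against anterior libraries 0 were called, where 0% of genes were, and 1 member had an unadjusted p under 0.05, as had 3.51% of all genes. DESeq2 made no member call in these 3 contrasts (0 each). The median fitted log2 fold of the members was 0.17, 0.11 and −0.09 in these 3 contrasts, against 0.02, 0.04 and −0.01 over all genes.

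Hist1h2ap had the smallest adjusted p of the members in posterior against middle libraries, with a log2 fold of 1.57 ± 0.53 (SE, 6 libraries; edgeR adjusted p = 0.870). In posterior against anterior libraries Hist1h1a had −1.08 ± 0.38 (adjusted p = 0.663) and Hist1h4d 1.59 ± 0.67 (adjusted p = 0.771). Hist1h2ap was called in both posterior contrasts when no filter on low counts was used, where 260 genes were called against anterior and 178 against middle (29 and 19 with the filter). Left out one at a time, the E9.5 posterior library gave 2 calls against anterior (Hist1h2ap, Hist1h4d) and 3 against middle (with Hist1h2ae), the E10.5 posterior library gave 1 in each (Hist3h2ba), and leaving out any one of the E10.5 anterior, E9.5 middle or E9.5 anterior libraries gave 1 against middle (Hist1h2ap). Calls over all genes also grew in these fits, to 226 and 231 without the E9.5 posterior library and 332 and 201 without the E10.5 posterior library, and to 37 to 168 against middle without one of the other 3. The Pcna and Mcm genes and the 5 comparison lists had no call in any of the 3 contrasts.

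Within E10.5 the posterior library had the highest histone level, 1.60 times the middle library (1.52 to 1.68) and 1.43 times the anterior library (1.27 to 1.62), with intervals of counting error only. Summed Pcna and Mcm2 to Mcm7 UMIs had much the same ratios in these libraries, 1.52 (1.41 to 1.63) and 1.45 (1.22 to 1.74). The Mcm genes gave 2534 of the 2667 UMIs of this sum in the posterior library, and had ratios of 1.58 and 1.57. Pcna by itself did not share this: its posterior level was 0.87 times the middle and 0.61 times the anterior library, and both intervals held 1. The core histone classes were above the middle library and H1 was not. H1 intervals held 1 against the middle (1.04, 0.95 to 1.13) and the anterior library (0.93, 0.77 to 1.12), whereas H2A was 2.87 times the middle (2.59 to 3.19) and 1.98 times the anterior library (1.58 to 2.52). H4 was 1.75 times the middle library (1.48 to 2.08) and H2B and H3 were 1.48 and 1.38 times it. Of the 42 members with at least 20 UMIs in both libraries together, 16 had an interval above 1 for posterior over middle and 0 below, where 26.7% and 13.3% of 10172 genes had; among the 16 were Hist1h2ap at 267 CPM against 34.3 CPM and Hist1h4d at 72.8 CPM against 27.4 CPM.

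The outflow tract library was close to the anterior one, 1.07 times it in sum (0.89 to 1.27), and all 5 class intervals held 1. Hist2h2ac, at 35.6 CPM in the outflow tract against 90.6 CPM in the anterior library, was the only one of 8 members with at least 20 UMIs there whose interval lay off 1, where 6.78% of 3185 genes were above and 6.97% below.

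Within E9.5 the order was different. Posterior cells had 0.87 times the histone level of middle cells (0.80 to 0.94) and 1.11 times that of anterior cells (1.00 to 1.22), and middle cells 1.27 times that of anterior cells (1.13 to 1.44). H2A, H2B and H3 had posterior to middle intervals that held 1, while H1 (0.80, 0.67 to 0.96) and H4 (0.74, 0.63 to 0.87) were lower in posterior. Of 33 members with enough UMIs, Hist1h2bc was above 1 for posterior over middle and 5 were below: Hist1h1e, Hist1h2ac, Hist3h2ba, Hist1h4i and Hist1h4d. Of 11724 genes, 10.7% were above and 8.29% below in the same 2 libraries. The E9.5 posterior to anterior ratio was 1.496 when cells with 3 or more UMIs of Epcam, Cdh1 and Cldn6 were left out. These were 57 of the 418 posterior and 37 of the 54 anterior cells, so the anterior value then rests on few cells. A cut of 3 UMIs is easier to reach in deeper cells.

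Other cell types moved with position and stage in the same libraries. Epithelial markers (Epcam, Cdh1, Cldn6, Krt8, Krt18) summed to 403, 294, 320 and 7.88 CPM in the E10.5 posterior, middle, outflow tract and anterior libraries, where the anterior library had 4 of the 5 at 0, against 669, 846 and 1289 CPM in the E9.5 posterior, middle and anterior libraries. Cardiomyocyte markers (5 listed) ran from 11.8 to 184 CPM at E10.5 against 192 to 1872 CPM at E9.5, and erythroid markers (5 listed) from 925 to 4769 CPM at E10.5 against 30.0 to 101 CPM at E9.5. Hepatoblast markers (4 listed) were at 315 CPM in the E10.5 posterior library against 3.43 CPM in the middle one, where Afp and Alb were at 0. Mitochondrially encoded UMIs were 2.83% of the E10.5 posterior and 1.34% of the E10.5 middle library. Endothelial markers (5 listed) summed to 0 to 40.7 CPM, neural crest markers (4 listed) likewise to 0 to 40.7 CPM and leukocyte markers (4 listed) to 0 to 5.09 CPM over the 7 libraries. The part of these differences in the histone levels was not tested.

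The question of whether cells rich in replication gene transcripts are also rich in histone transcripts was put within each library, with each cell thinned to 4500 UMIs. Cells were split by their summed Pcna and Mcm2 to Mcm7 UMIs into 0, 1, 2 and 3 or more; cells are not replicates, so no test is made. In E10.5 posterior cells histone UMIs did not climb with the replication genes: the 40 cells with 0 Pcna and Mcm UMIs averaged 8.80 ± 7.93 histone UMIs (SD over cells), the 62 with 1 averaged 5.98 ± 5.66, the 80 with 2 averaged 6.95 ± 5.67 and the 289 with 3 or more averaged 7.41 ± 6.35. The ratio of cells with 3 or more to cells with 0 was 0.84 (0.75 to 0.95), and 0.97 (0.85 to 1.11) with cells thinned to 2000 UMIs. In E10.5 middle cells the ratio was 1.57 (1.29 to 1.92), from 5.17 ± 4.63 in 118 cells with 3 or more and 3.29 ± 2.60 in 38 cells with 0. Intervals between groups of cells, here and below, cover counting error only. They leave out the spread between cells, which the SDs show to be larger, so an interval off 1 does not show a difference between cells.

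The other libraries had under 20 cells with no replication UMI and bear little weight. The ratio was 4.81 in the outflow tract (2.35 to 11.4; 13 cells against 5), 0.95 in the E10.5 anterior (0.66 to 1.39; 13 against 12), 1.11 in the E9.5 posterior (0.72 to 1.81; 290 against 13; 0.67, 0.48 to 0.94, at 2000 UMIs) and 2.42 in the E9.5 middle library (0.91 to 9.07; 45 against 5). In the E9.5 anterior library 4 cells had none, too few for a ratio. At this depth E9.5 cells averaged 1.33 to 1.77 histone UMIs, so little of a difference could be seen in them. Spearman's rho between histone and Pcna plus Mcm UMIs was 0.02 in E10.5 posterior cells (n = 471), 0.15 in E10.5 middle cells (n = 291), 0.56 in outflow tract cells (n = 31) and 0.03 in E10.5 anterior cells (n = 40), and from −0.02 to 0.01 in the 3 E9.5 libraries.

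Single members were read in the same way in the E10.5 posterior library, now with the full counts of those cells. The intervals of 25 of 27 members held 1, and so few lay off 1 that no pattern of single members is read from them. Of 27 members with at least 20 UMIs, 0 had an interval above 1 and 2 below, where 2.19% of 8041 genes were above and 3.26% below: Hist2h2bb at 24.5 CPM in cells with 3 or more replication UMIs against 52.9 CPM in cells with 0, and Hist1h4d at 62.5 CPM against 130 CPM. Hist1h1b was at 239 CPM against 293 CPM, and Hist1h2ap at 268 CPM against 252 CPM. In the E10.5 middle library 5 of 12 were above 1 (Hist2h2ac, Hist1h1b, Hist1h2ae, Hist1h1e, Hist1h1a) and 0 below, where 7.06% of 5170 genes were above and 4.99% below, and H1 as a class was at 540 CPM against 254 CPM, 2.13-fold (1.67 to 2.74). In the same posterior cells the G2/M list was lower where replication genes were counted, 5008 CPM against 7994 CPM.

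Histone UMIs went along with other S phase genes in the E10.5 cells. When cells were grouped by the summed UMIs of 20 S phase genes that include neither Pcna nor an Mcm gene, the 132 E10.5 posterior cells with over 12 such UMIs averaged 10.45 ± 6.63 histone UMIs and the 171 with up to 7 averaged 4.99 ± 5.18, a ratio of 2.09 (1.92 to 2.28). In E10.5 middle cells the 91 with over 11 averaged 5.97 ± 4.81 and the 102 with up to 7 averaged 3.41 ± 2.87, a ratio of 1.75 (1.53 to 2.01). In E9.5 posterior cells the 118 with over 13 and the 160 with up to 9 averaged 1.80 ± 1.67 and 1.63 ± 1.57, a ratio of 1.1 (0.91 to 1.33). With E9.5 posterior cells thinned to 20000 UMIs the ratio was 1.24 (1.13 to 1.36), a depth not used for E10.5 cells. The same rho as above was 0.38, 0.23, 0.44 and 0.53 with the S phase list and −0.04, −0.32, −0.68 and −0.33 with the G2/M list in the E10.5 posterior, middle, outflow tract and anterior libraries.

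Ranked over all genes with a UMI in at least 10% of cells, the genes most like the histone sum were led by Pclaf in both large E10.5 libraries. In E10.5 posterior cells the 10 highest of 5138 genes outside the family were Pclaf, a Pcna-binding factor (0.36), H3f3b (0.28), Dek, a chromatin protein (0.28), Tyms (0.27), Top2a, Tk1, Lig1, Lsm3, Dut and Atad2, down to 0.22. Pcna ranked 2025th by rho (0.01), Mcm6 298th, Mcm5 610th, Mcm2 670th, Mcm7 2254th, Mcm4 4534th and Mcm3 4685th. In E10.5 middle cells the 10 highest of 4599 were Pclaf (0.38), H3f3b (0.34), Tk1 (0.25), Fbxo5, Slbp (0.25), Phactr4, Ubr7, Esco2, Nsmce3 and Rfc2. There Mcm6 ranked 24th (0.17), Mcm2 101st, Mcm4 224th, Mcm5 547th, Mcm3 1936th, Pcna 2117th and Mcm7 3032nd. In E9.5 posterior cells the highest value at 4500 UMIs was 0.17 (Pcbp2). At 20000 UMIs no ranking was made, and of the genes read H3f3b had 0.32, Pclaf 0.25, Tyms 0.21, Tk1 0.11 and Slbp 0.07. All values share the cell's depth, which thinning sets equal.

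**Figure D3:**
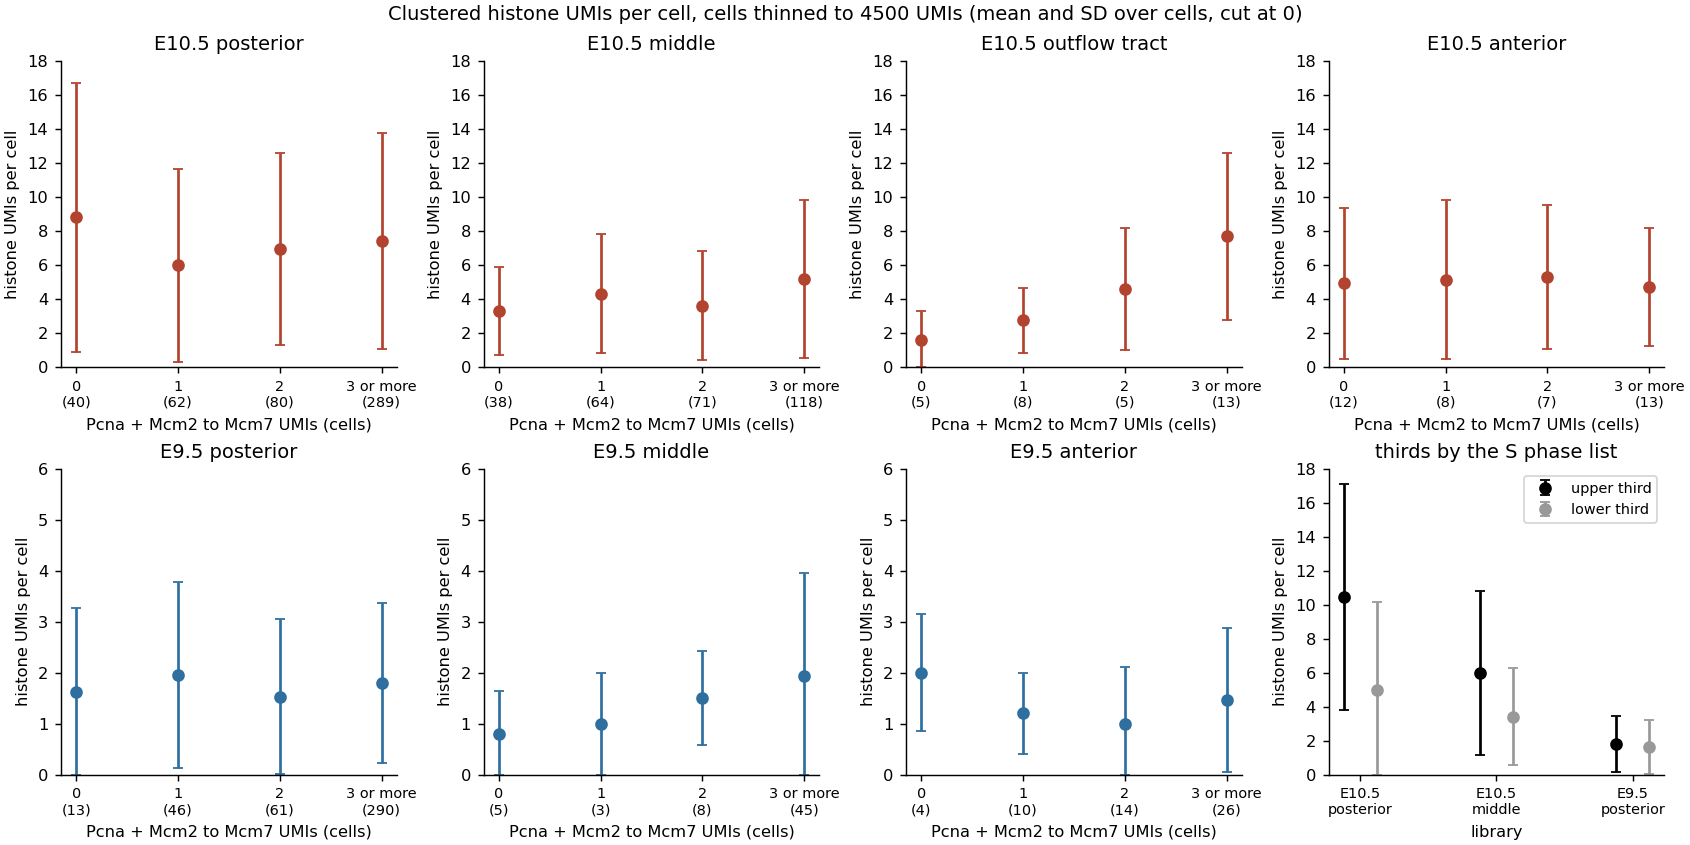
Mean clustered histone UMIs per cell with SD over cells (vertical axis) by the cell's Pcna plus Mcm2 to Mcm7 UMIs (horizontal axis, number of cells in brackets) in each library, and, in the last panel, in the upper (black) and lower (grey) group by S phase list UMIs, all at 4500 UMIs per cell; the E9.5 panels have a smaller vertical scale. E10.5 posterior cells average 8.80 at 0 and 7.41 at 3 or more replication UMIs, while their upper and lower groups by S phase list UMIs are at 10.45 and 4.99.

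The members also went up and down together from cell to cell, but not all of them. In E10.5 posterior cells Hist1h2ap, Hist1h2ae and Hist1h1b had a rho of 0.61, 0.59 and 0.58 with the sum of the other members, followed by Hist1h1e (0.44), Hist2h2ac (0.42), Hist1h4d (0.36) and Hist1h3c (0.35). Hist1h4i, the leading member at E9.5, was the lowest of 13 at 0.12. The highest of the 78 pairs was Hist1h2ap with Hist1h2ae (0.47), 2 H2A genes that share sequence, and Hist1h1b, which shares none, had 0.46 with Hist1h2ap and 0.45 with Hist1h2ae. In E10.5 middle cells Hist1h1b led with 0.50 and Hist1h4i was again the lowest of 9 (0.09).

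In E9.5 posterior cells no member passed 0.11 at 4500 UMIs, where 5 members could be measured. At 20000 UMIs (354 cells) 11 could, with pairs as follows. Hist1h1b with Hist1h2ap (0.39), Hist1h2ap with Hist1h1e (0.35) and Hist1h1b with Hist1h1e (0.27) were among the highest pairs, and all 3 genes had a posterior stage ratio above 6. Hist1h2bc with Hist1h1c (0.31) and Hist3h2a with Hist3h2ba (0.26) were the other high pairs, all genes with a posterior stage ratio under 1. Hist1h1b had −0.01 with Hist1h2bc, −0.04 with Hist3h2a and −0.06 with Hist3h2ba, but Hist1h1c had 0.18 with Hist1h2ap and 0.12 with Hist1h1b and with Hist1h1e. Hist1h4i, whose posterior stage ratio was 0.48, had 0.22 with Hist1h2ap and 0.20 with Hist1h1b, so pairs did not follow the stage ratio throughout. With the S phase list the 11 members ran from −0.20 for Hist3h2a to 0.26 for Hist1h2ap, with Hist1h4i at 0.22, Hist1h1b at 0.14, Hist1h1c at 0.09, Hist1h4d at 0.03, Hist1h2bc at −0.01 and Hist1h2ae at −0.04.

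**Figure D4:**
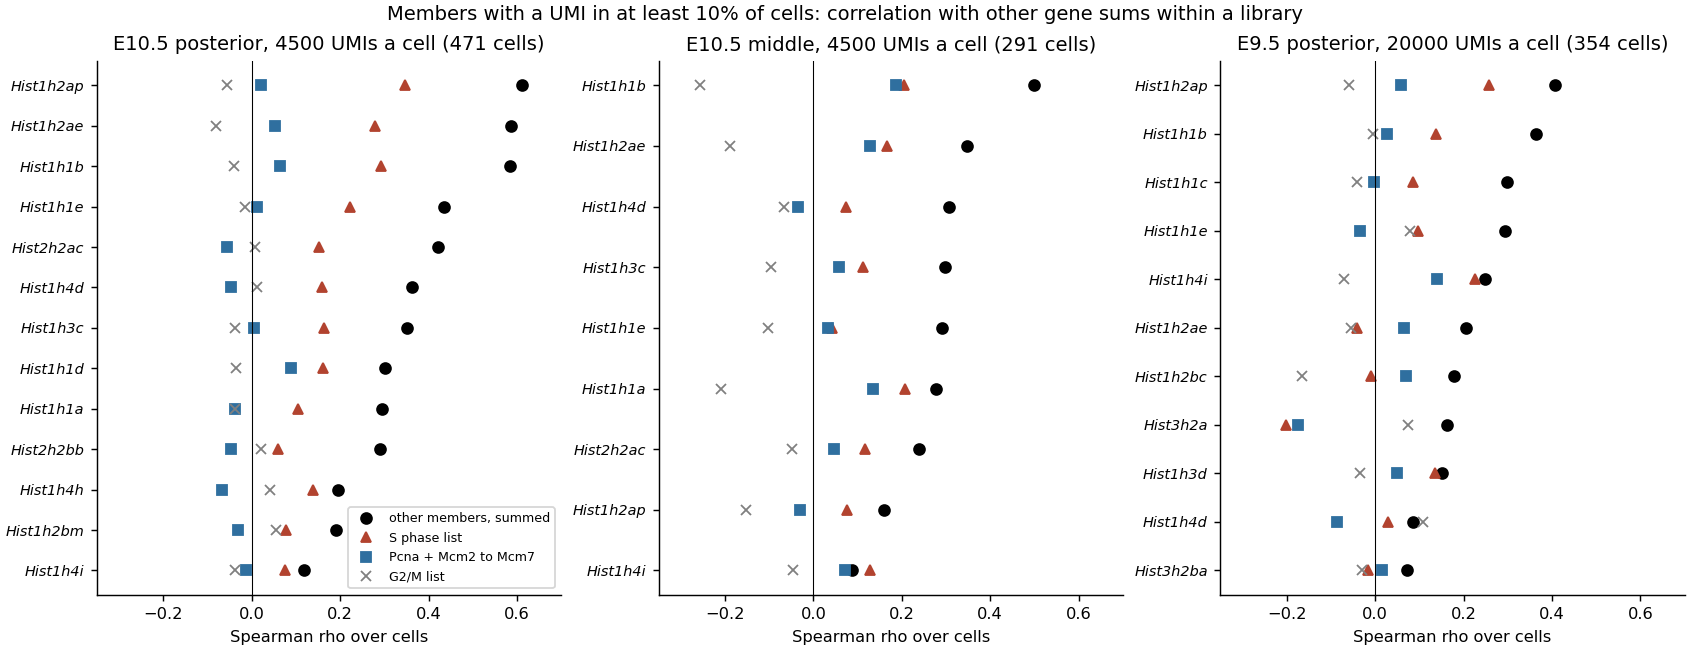
Spearman rho over cells (horizontal axis) of each member with a UMI in at least 10% of cells (vertical axis, ordered by the black points) with the summed other members (black), the S phase list (red), Pcna plus Mcm2 to Mcm7 (blue) and the G2/M list (grey), in E10.5 posterior, E10.5 middle and E9.5 posterior cells. In E10.5 posterior cells the black points run from 0.12 for Hist1h4i to 0.61 for Hist1h2ap, with the blue points near 0 throughout.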

How the data were processed

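Second heart field cells of wild-type mice at E10.5 and E9.5 were measured by 10x single-cell RNA sequencing. Per the labels' protocols the reads were aligned to mm10, and the submitters' processing notes name Cell Ranger 3.0 and Seurat, with no role for either. Which gene annotation was used is not given in the sources used here. What the authors deposited are unnormalized UMI counts, one whole number for every gene in every cell. No cell was left out of the main analysis. Scrublet (scanpy 1.11.5) marked 107 of the 1500 cells, most of them in the 3 smallest libraries (57.4% to 97.8% of cells), where its marks were not used; 13 marked cells in the other 4 libraries were left out in an alternative.

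Counts were summed per library and scaled to the library total (CPM). These are 3′ or 5′ tag counts whose kit is not stated. Shares and ranks of members are therefore of counted UMIs and not of transcript amounts. Ratios have 95% conditional Poisson (Clopper-Pearson) intervals that cover counting error only; the floor for a library at 0 is 3 UMIs. The position fit used edgeR 4.0.16 in R 4.3.3 (TMM, filterByExpr, glmQLFit, glmQLFTest, with 2 residual degrees of freedom), with DESeq2 1.42.0 as an alternative. With stage in the model, its p-values measure only how far the position differences disagreed between the 2 stage samples. The estimate of that spread borrows from all genes. The fit and the cell split were tested on simulated counts. Thinning to 4500 UMIs left out 89 E10.5 posterior, 40 E10.5 middle, 5 E10.5 anterior and 8 E9.5 posterior cells, and thinning to 20000 left out 64 E9.5 posterior cells. Gene positions and transcripts are from GENCODE vM21 and promoters from RefSeq.

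The members, the gene lists, the marker lists and the alternatives were chosen with earlier results of these data known. Named with values are the 3 members with the most UMIs in each class, those at least 2-fold apart in 1 direction at all 3 positions with at least 20 UMIs, Pcna, Mcm2 to Mcm7, the 3 most counted genes of each list and the 10 genes with the highest rho; other members are named where a count or a property was read after their values were seen. The split by the S phase list, the depth of 20000 UMIs, the values of single members by replication UMIs and the annotated transcript ends were added after seeing the data.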

Additional observations from a re-analysis of the deposited data

Results flagged for a closer look

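Posterior over middle ratios pointed opposite ways at the 2 stages, with counting intervals off 1 at both. For the summed clustered histone UMIs the ratio was 1.60 at E10.5 and 0.87 at E9.5, and for H4 genes it was 1.75 at E10.5 and 0.74 at E9.5. Among single members, Hist3h2ba had 1.62 at E10.5 and 0.45 at E9.5, and Hist1h4d had 2.65 at E10.5 and 0.61 at E9.5. Each stage has 1 posterior and 1 middle library, so these differences between stages were not tested.

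Within E10.5, histone UMIs in cells with 3 or more Pcna and Mcm2 to Mcm7 UMIs over cells with 0 had a ratio of 0.84 in the posterior library and 1.57 in the middle library, on either side of 1. This difference between positions was not tested, and the posterior value was 0.97 with cells thinned to 2000 UMIs. Counting intervals of these ratios leave out the spread between cells.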

How the results depend on the processing

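With no filter on low counts, 1 member was called in posterior against anterior and 1 in posterior against middle (Hist1h2ap in both), among 260 and 178 genes against 29 and 19 with the filter; leaving out 1 library at a time gave 0 to 2 calls against anterior, 0 to 3 in posterior against middle and 0 in middle against anterior. Library totals, RLE factors, DESeq2, leaving out epithelial-marker cells and leaving out Scrublet-marked cells gave 0 member calls in all 3 contrasts. The stage difference of the summed histone UMIs kept its direction in every alternative: the mean log2 ratio of 1.68 was 1.76 with cells weighted equally, 1.75 thinned to 4500 UMIs, 1.42 without Hist1h1b, 1.81 without epithelial-marker cells and 1.48 to 1.92 with 1 position left out. By position, the posterior ratio was 4.69 with cells weighted equally, 4.11 thinned and 3.83 without Hist1h1b, the middle ratio 1.81 without Hist1h1b, and the anterior ratio 2.80 without Hist1h1b and 4.42 without epithelial-marker cells. The E9.5 posterior to anterior ratio of 1.11 was 1.33 thinned and 1.496 without epithelial-marker cells. Epithelial-marker cells were 37 of the 54 E9.5 anterior cells and 0 of the 45 E10.5 anterior cells. Thinned to 2000 UMIs, the ratio by Pcna and Mcm UMIs was 0.97 in E10.5 posterior and 0.67 in E9.5 posterior cells. The cause of these moves was not tested. The other 75 of 98 values were scored as unmoved. For counts of calls and for single ratios, this meant the same count or a value within the counting interval. The mean log2 ratio has no counting interval. Its values of 1.48 and 1.92 with 1 position left out were scored as unmoved. The nearer values of 1.76 and 1.75 were scored as moved. Splits by Pcna alone could be made only in E9.5 posterior cells, and leaving out Scrublet-marked cells was run in 4 libraries only, a choice made after seeing the data. The position fit holds stage as a term and so already compares positions within a stage, with 1 sample per stage. No separate paired analysis was made. Thinned to 4500 UMIs, E9.5 cells averaged 1.33 to 1.77 histone UMIs per library, against 4.35 to 7.26 in E10.5 cells. Little of a difference could therefore be seen among E9.5 cells at this depth.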
